A study of Mus musculus with 22 samples.

Results

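The genes described here are 35 genes of glycolysis and pyruvate metabolism, taken from the 24421 genes of the count tables as a fixed list of symbols. The list holds 2 glucose transporters, 2 hexokinases, 7 genes of upper glycolysis, 6 of lower glycolysis, 2 lactate dehydrogenases, 4 genes of the bifunctional PFK-2/FBPase-2 family, 4 pyruvate dehydrogenase kinases, 3 pyruvate dehydrogenase subunits and 5 genes of gluconeogenesis. All 35 could be tested, and 32 reached the minimum required for a call, a mean over the 22 libraries of 50 normalized counts. The exceptions were Slc2a3, Eno1 and Pfkfb1. RNA had been sequenced from 6 epithelial populations sorted from colon crypts of male wild-type C57BL/6N mice aged 5 to 7 weeks, without any transgene or treatment, and the groups were defined by their surface markers. Every sorted cell was live, Cd31-, Cd45- and Epcam+. Stem cells (3 libraries) had the highest Cd44 with low Cd24 and no Ckit, and absorptive progenitors (AbsPro, 3 libraries) had medium to high Cd44 with low Cd24 and no Ckit. The SecPDG gate (4 libraries; secretory progenitor, deep crypt secretory and goblet cells) took high Cd44 by the labels (medium in the study's text) with medium Cd24 and Ckit, and the Tuft gate (5 libraries) took Ckit+ cells with high Cd24. Enterocytes (5 libraries) had low or no Cd44 and no Cd24, and enteroendocrine cells (EEC, 2 libraries) had low or no Cd44 with Cd24. Each Stem and AbsPro library came from a single mouse, whereas the others pooled cells of several mice, so that their spread is one between pools.

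Glycolysis splits glucose into pyruvate in the cytosol. Pyruvate is then either reduced to lactate by lactate dehydrogenase or oxidised to acetyl-CoA in the mitochondrion by the pyruvate dehydrogenase complex, which pyruvate dehydrogenase kinases switch off. Flux through the committed step, phosphofructokinase, is raised by fructose 2,6-bisphosphate, the small molecule that PFK-2/FBPase-2 enzymes make and remove, while gluconeogenesis runs the pathway backwards through phosphoenolpyruvate carboxykinase, fructose bisphosphatase and glucose 6-phosphatase. In the colon, differentiated epithelium is known to burn the butyrate made by bacteria, and proliferating crypt cells are known to use glucose.

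Depth was uneven. Counts on genes ranged from 15314543 to 22462518 in the Stem, AbsPro and SecPDG libraries, from 9930648 to 20892532 in Tuft, from 5950619 to 12966128 in Enterocyte, and were 4122122 and 13132315 in the EEC libraries. Reads outside genes made up 40.9% to 49.4% in the first 3 populations, 43.4% in Tuft replicate 5 and 59.5% to 68.0% in the other Tuft libraries, and 64.5% to 89.7% in Enterocyte and EEC. Genes silent in gut, such as olfactory receptors, took 12.2 to 157 CPM (counts scaled to the library total) in Stem, AbsPro and SecPDG, 179 to 1476 CPM in Tuft, 777 to 3912 CPM in Enterocyte, and 625 and 7096 CPM in EEC. Replicates had a Spearman rho across genes of 0.87 to 0.969 in 5 populations and 0.696 between the EEC libraries. Stem, tuft and enteroendocrine markers had their highest summed level in the population of that name, and secretory markers in SecPDG (and nearly as high in Tuft). The 6 enterocyte markers summed to 46777 to 67925 normalized counts in the Enterocyte libraries and to 62181 to 95687 in AbsPro, which thus reached higher. In EEC they summed to 21061 and 131525, on either side of the Enterocyte libraries. The summed level of 3 erythroid markers was 401 to 3088 in EEC and at most 101 elsewhere, and 2 of the 3 were at 0 in both EEC libraries. Stromal markers (8 genes) summed to 2396 to 3713 in EEC and at most 1885 elsewhere, endothelial markers (4 genes) to 1303 to 1858 in EEC and at most 1158 elsewhere, and immune markers (12 genes) to 761 to 2793 in EEC, 1705 to 3642 in Tuft and at most 1968 elsewhere. Of the 35 genes, 26 were lower in EEC replicate 1, the shallowest library, than in EEC replicate 2. The part of these differences in the results was not tested.

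A gene was called changed where the edgeR quasi-likelihood test gave an adjusted p below 0.01 and the gene reached the minimum mean. Of the 35 genes, 13 were called in at least 1 of the 5 comparisons with Stem and 22 in none, among them the 3 under the minimum mean. The matching share of all genes was not computed, so these 2 counts do not set the list apart. Against Stem, AbsPro had 0 of 32 genes called, beside 0.591% of all genes called higher and 0.0379% called lower. At an unadjusted p below 0.05 there were 4 higher and 0 lower, and DESeq2 called 3 higher and 0 lower. SecPDG had 4 called higher (12.5%) and 0 lower, beside 4.17% and 1.19% of all genes (2 lower at an unadjusted p below 0.05, and 0 with DESeq2). Tuft had 3 higher (9.38%) and 1 lower (3.12%), beside 7.63% and 3.5%, and Enterocyte had 4 higher (12.5%) and 2 lower (6.25%), beside 9.68% and 13.7%. EEC had 2 higher (6.25%) and 5 lower (15.6%), beside 11.4% and 12.9%. Apart from the genes called higher in SecPDG, these shares lay near those of all genes or below them.

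Comparisons that did not involve Stem also gave short lists. Between the progenitors of the secretory and absorptive lineages, SecPDG against AbsPro had 3 genes called higher and 0 lower, beside 2.09% and 1.74% of all genes (2 lower at an unadjusted p below 0.05, and 2 with DESeq2). Within the lineages, Enterocyte against AbsPro had 2 higher and 2 lower, beside 3.29% and 5.5%, and Tuft against SecPDG had 1 higher and 0 lower, beside 1.49% and 0.0607% (6 lower at an unadjusted p below 0.05, and 3 with DESeq2). Medians were taken over genes that reached the minimum mean, 32 of the 35 listed. The median log2 fold change of these 32 genes against Stem was 0.28 in AbsPro, -0.16 in SecPDG, -0.48 in Tuft, -0.41 in Enterocyte and -0.51 in EEC. All genes had 0.04, -0.05, -0.09, -0.30 and -0.33. The split of calls moved with the scaling. With DESeq2 size factors in the same test, Enterocyte had 9 higher and 1 lower and EEC had 8 higher and 4 lower, and the median of all genes moved from -0.30 to 0.36 and from -0.33 to 0.53. Under library totals the splits were 8 to 1 in Enterocyte, 7 to 6 in EEC and 6 to 4 in Tuft. Enterocyte against AbsPro was 4 to 1 under both, and SecPDG against AbsPro was 3 to 1 under size factors and 3 to 2 under totals. Small changes in Enterocyte and EEC are therefore relative to a reference that depends on the scaling.

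**Figure D1:**
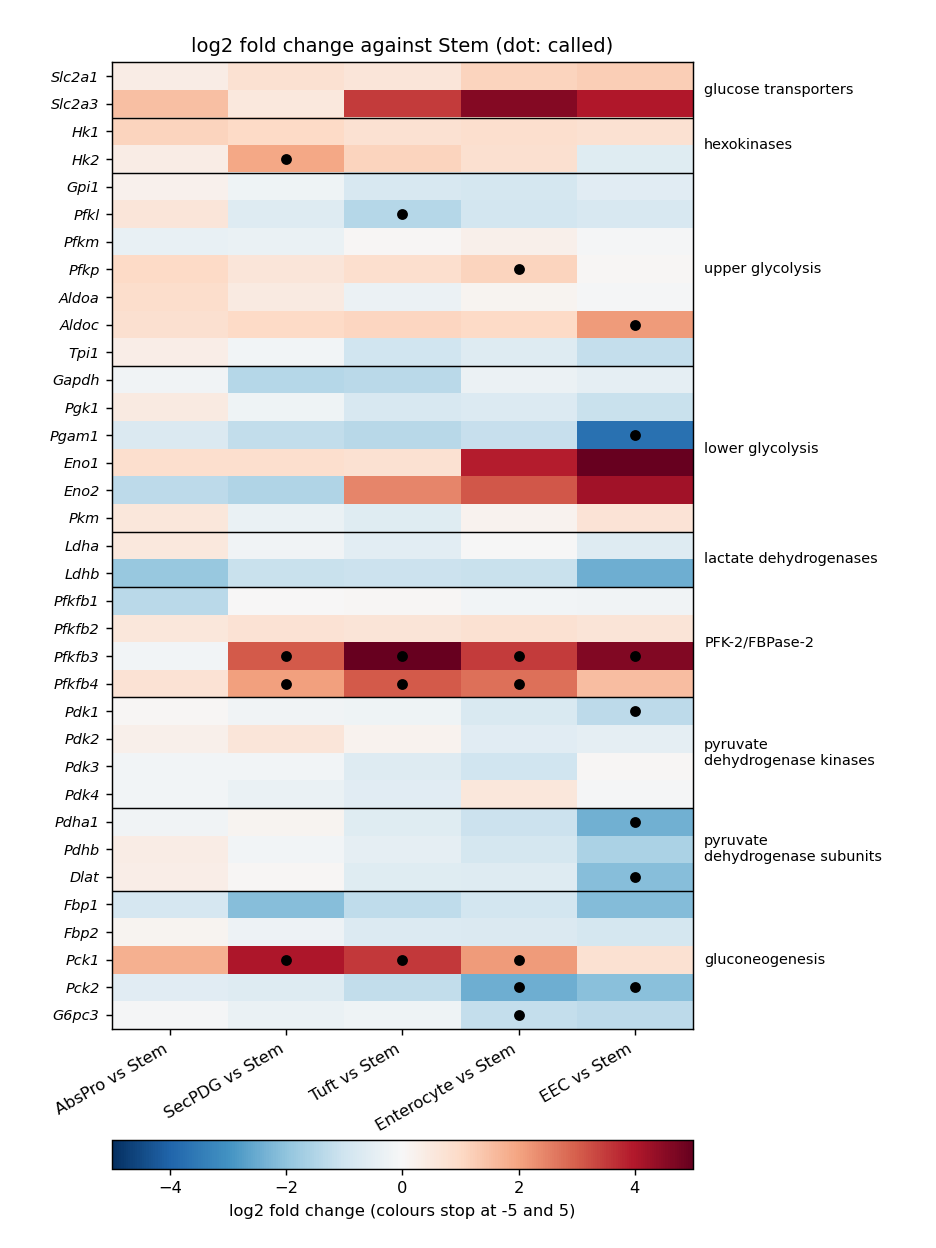
Colour gives the log2 fold change of each of the 35 genes (rows, grouped by role) in 5 populations against Stem (columns), and a dot marks a call at an adjusted p below 0.01 with a mean of at least 50 normalized counts. Dots cluster on Pfkfb3 (4 populations), Pfkfb4 and Pck1 (3 each), and the strong colours of Slc2a3, Eno1 and Eno2 carry no dot.

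Glucose transporters were not called in any comparison. Slc2a1 (GLUT1, the basal transporter of most cells) averaged 633 ± 195 normalized counts in Stem (SD, n = 3), 814 ± 70.6 in AbsPro (n = 3), 1087 ± 216 in SecPDG (n = 4), 968 ± 211 in Tuft (n = 5), 1389 ± 282 in Enterocyte (n = 5) and 1492 ± 1279 in EEC (n = 2). The Enterocyte libraries, between 1207 and 1878, all lay above the Stem libraries at 462 to 845, with a log2 difference of 1.13 that narrowly missed the threshold (adjusted p = 0.0102). Slc2a3 (GLUT3, a high-affinity transporter of neurons) stayed between 0 and 221 normalized counts in every library, and the background level from silent genes would account for 28.6% of its count in Enterocyte and 53.4% in EEC.

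Hexokinases trap glucose in the cell as glucose 6-phosphate. Hk2, the regulated isozyme typical of muscle and tumours, had 1401, 1974 and 1534 normalized counts in the Stem libraries and 2307, 1692 and 2337 in AbsPro. The 4 SecPDG libraries had 5439.8, 8777, 5639.5 and 5451, above every library of the other populations. Hk2 was thus 1.95 ± 0.34 (SE) higher than in Stem on the log2 scale (adjusted p = 0.00016) and 1.58 ± 0.33 higher than in AbsPro (adjusted p = 0.0025). The second call was lost without AbsPro replicate 2 (log2 difference 1.45, adjusted p = 0.0381). Tuft libraries had 2587 to 4338 normalized counts of Hk2, Enterocyte libraries 2306 to 3365, and the 2 EEC libraries 739 and 1398. All 5 Tuft libraries exceeded the Stem ones, and the difference of 1.11 did not pass (adjusted p = 0.0131). Hk1, the constitutive isozyme bound to mitochondria, had its lowest mean in Stem at 1559.5 ± 285 normalized counts and 2642 to 3373 in the means of the other populations, with no call.

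The promoter of Hk2 is shown because the gene stood apart in SecPDG. The stretch is the 250 bases before the RefSeq start at chr6:82774455-82774704 (GRCm38.p6, minus strand). Capitals mark ACGTG, the core of the hypoxia response element, read on both strands, so that the other strand appears as CACGT and a CACGTG E-box holds both.
Hk2: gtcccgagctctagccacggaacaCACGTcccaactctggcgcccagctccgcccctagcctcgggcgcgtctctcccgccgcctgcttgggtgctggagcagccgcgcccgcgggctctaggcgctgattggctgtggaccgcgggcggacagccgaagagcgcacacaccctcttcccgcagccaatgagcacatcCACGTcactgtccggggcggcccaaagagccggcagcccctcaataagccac
Among the 53 promoters of 300 bases (250 before and 50 after the start) that RefSeq holds for 34 of the 35 genes, 22 contained this core (41.5%), against 19.6% of all 32851 promoters. These letters are a description of the window and no measure of binding.

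Phosphofructokinase makes the committed step of glycolysis. Pfkl, the liver-type subunit, had 4227, 4722 and 3834 normalized counts in Stem and 5834, 8287 and 5527 in AbsPro. It lay at 1943 to 3279.9 in SecPDG, with a median of 1488 and a range of 1263 to 2171 in Tuft, at 997 to 3446 in Enterocyte, and at 692 and 4118 in EEC. The Tuft libraries were all below the Stem libraries, and Pfkl fell by 1.42 ± 0.38 on the log2 scale (adjusted p = 0.0097). This call rested on every library but one: it was lost when any of the 3 Stem libraries or Tuft replicates 1 to 4 was left out (adjusted p 0.0105 to 0.0313). Against AbsPro, Pfkl was lower in Enterocyte by a log2 difference of -1.55 ± 0.38 (adjusted p = 0.0071), again without overlap. That call was lost without AbsPro replicate 2 or Enterocyte replicates 2, 3 or 5 (adjusted p 0.0141 to 0.0517) and under both other scalings in edgeR.

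In AbsPro, both Pfkl and Pfkp lay above all Stem libraries, without a call. Pfkp, the platelet-type subunit, was called higher in Enterocyte against Stem and in no other comparison. Its normalized counts were 725, 1126 and 984 in Stem. AbsPro libraries had 1573 to 2088, SecPDG libraries 1075 to 2219, Tuft libraries 1244 to 2154 and the EEC libraries 659.8 and 1309. Enterocyte libraries had 1683, 2165, 1725, 2424 and 2173 and lay above all Stem libraries, a log2 rise of 1.11 ± 0.32 (adjusted p = 0.0077). The call was lost without any of the Stem libraries or Enterocyte replicates 2, 4 or 5 (adjusted p 0.0106 to 0.0445), and 16% of the transcript's stretches of 100 bases occur in a second gene, Pitrm1. The AbsPro libraries lay as high, and the difference between Enterocyte and AbsPro was 0.09. Pfkm, the muscle-type subunit, had means of 179 to 273 normalized counts and no call.

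Since longer transcripts give more reads, isozymes were compared as shares of counts per kb of exon. The length used was that of all annotated exons of a gene merged, and no single transcript need hold them all. It was 8532 bases for Hk1 and 5969 for Hk2, although the longest coding transcript of Hk2 is longer than that of Hk1. For Pfkp it was 13401 bases and for Pfkl 6675. The size of a share, and which isozyme leads, can therefore depend on these lengths. Shares by transcript length were not computed. Pfkl made up a mean of 82.1% ± 3.27 in Stem, 82.8% ± 5.45 in AbsPro, 71.7% ± 3.27 in SecPDG, 54.1% ± 6.45 in Tuft, 56.8% ± 11.1 in Enterocyte and 63.0% ± 23.2 in EEC (of all 3 phosphofructokinase genes, SD over libraries). The share of Pfkp had its lowest mean in Stem and its highest in Tuft. Its mean was 9.04% ± 1.51 in Stem, 12.5% ± 3.55 in AbsPro, 18.7% ± 3.23 in SecPDG, 29.1% ± 6.82 in Tuft, 27.8% ± 6.35 in Enterocyte and 17.4% ± 6.77 in EEC (SD over libraries). No Tuft library reached the lowest Stem share of Pfkl, the highest in Tuft being 63.8% and the lowest in Stem 79.7%. Hk2 made up, of Hk1 and Hk2, 60.0% ± 0.0121 in Stem, 47.0% ± 5.28 in AbsPro, 74.2% ± 1.36 in SecPDG, 65.3% ± 3.96 in Tuft, 60.3% ± 4.39 in Enterocyte and 38.2% ± 5.76 in EEC (SD over libraries). Shares against Stem were not tested. Of the mature populations, Tuft and Enterocyte were compared for 8 shares by a two-sided exact permutation test with 5 libraries each. The smallest p this exact test can give is 0.00794, which is 0.0635 after adjustment where 1 share alone reaches it, so that its adjusted p could hardly pass and the differences are given as values. In this exact test, Tuft minus Enterocyte was 5.01 percentage points for Hk2 (p = 0.0952, adjusted 0.254), -2.70 for Pfkl (p = 0.659, adjusted 0.753), 1.27 for Pfkp (p = 0.77, adjusted 0.77) and 1.21 for Pck1 (p = 0.238, adjusted 0.476).

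**Figure D2:**
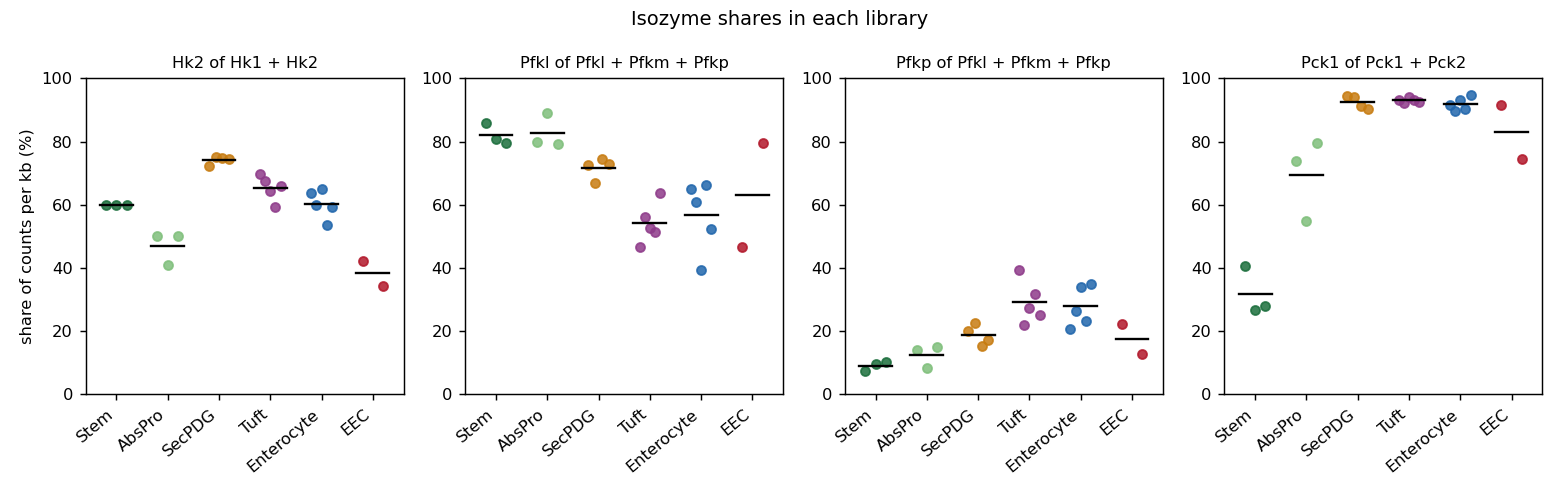
Each point is a library, the line is the mean of its population, and the vertical axis is the share (%) of counts per kb of merged exon that 1 isozyme takes of its family. Pfkl has a mean of 82.1% in Stem and 54.1% in Tuft, Pfkp has 9.04% in Stem and 29.1% in Tuft, Hk2 is highest in SecPDG, and Pck1 lies at no more than 40.4% in the Stem libraries and at no less than 89.8% in SecPDG, Tuft and Enterocyte.

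The PFK-2/FBPase-2 family held the largest called rise. Pfkfb3, the isozyme with the strongest kinase activity and so the one best known for driving glycolysis, lies at chr2:11471433-11554077 (GRCm38, minus strand). It had 42.1, 26.9 and 11.4 normalized counts in the Stem libraries and 36.0, 21.1 and 15.0 in AbsPro. SecPDG libraries had 245, 403, 110.3 and 147, Enterocyte libraries 426, 271, 377, 131 and 306, EEC libraries 801 and 527, and Tuft libraries 1028, 679, 1259, 1517 and 848. No library of these 4 populations overlapped Stem or AbsPro, and in order of level AbsPro and Stem overlapped each other, as did SecPDG and Enterocyte, and EEC and Tuft. On the log2 scale Pfkfb3 was higher than in Stem by 3.07 ± 0.50 in SecPDG (adjusted p = 5.9e-05), 5.31 ± 0.55 in Tuft (1.6e-08), 3.49 ± 0.50 in Enterocyte (5.1e-06) and 4.63 ± 0.56 in EEC (3.2e-07), and by -0.14 in AbsPro (adjusted p = 1). Each of these 4 calls held under every alternative setting that could lose a call. No minimum mean and an adjusted p below 0.05 only relax the rule, so no call could be lost under them. The SecPDG, Tuft and Enterocyte calls also held with any library left out, and in EEC the log2 difference was then at least 4.12.

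Pfkfb3 was also called in the comparisons without Stem. It was 3.21 ± 0.50 higher in SecPDG than in AbsPro (adjusted p = 7.4e-05), 3.63 ± 0.51 higher in Enterocyte than in AbsPro (3.1e-05) and 2.24 ± 0.41 higher in Tuft than in SecPDG (0.00084). The first 2 calls held without any 1 library, and the last was lost without SecPDG replicate 3 or 4 (log2 difference at least 2.01, adjusted p 0.0105 and 0.0112). Enterocyte with AbsPro and Tuft with SecPDG are pairs whose count tables came under the same form of name. The SecPDG and Tuft tables differ in form from those of the other 4 populations. Where SecPDG or Tuft is compared with Stem, or SecPDG with AbsPro, this difference cannot be told apart from the cell type. The same limit applies to Hk2 and Pck1 in these comparisons. The background level would give 11.5% of the Pfkfb3 count in Enterocyte and 6.6% in EEC, and with it taken off the log2 difference from Stem was 3.58 in Enterocyte and 4.77 in EEC.

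Pfkfb4, best known from testis and as a gene induced by hypoxia, was likewise lowest in Stem and AbsPro and highest in Tuft, but its mean in EEC lay below that in SecPDG and Enterocyte. Its normalized counts were 87.2, 25.6 and 47.2 in Stem, 91.1, 102 and 71.3 in AbsPro, 198, 177, 281 and 218 in SecPDG, 779.9, 271, 519.5, 210.5 and 438 in Tuft, 271, 327, 393, 381 and 419.6 in Enterocyte, and 99.4 and 211 in EEC. Only AbsPro overlapped Stem. The log2 rise over Stem was 2.04 ± 0.47 in SecPDG (adjusted p = 0.0052), 3.06 ± 0.49 in Tuft (3.2e-05) and 2.75 ± 0.48 in Enterocyte (7.8e-05), and the difference in EEC was 1.55 without a call (adjusted p = 0.0196). The SecPDG call was lost without Stem replicates 2 or 3 or SecPDG replicates 3 or 4 (adjusted p 0.0112 to 0.0446), and the rise of Enterocyte over AbsPro, 2.02 ± 0.46 (adjusted p = 0.0037), was lost without any of the AbsPro libraries or Enterocyte replicate 3 (adjusted p 0.0101 to 0.0208). Pfkfb2, the heart-type isozyme, had means of 576 in Stem and 853 to 974 normalized counts elsewhere, and Pfkfb1, the liver-type one, had means of 12.7 to 33.4. Neither was called. Per kb of merged exon, Pfkfb2 led the family in Stem (79.4 normalized counts per kb, against 10.9 for Pfkfb4 and 3.5 for Pfkfb3), whereas in Tuft Pfkfb3 stood at 141, Pfkfb2 at 126 and Pfkfb4 at 91.1.

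**Figure D3:**
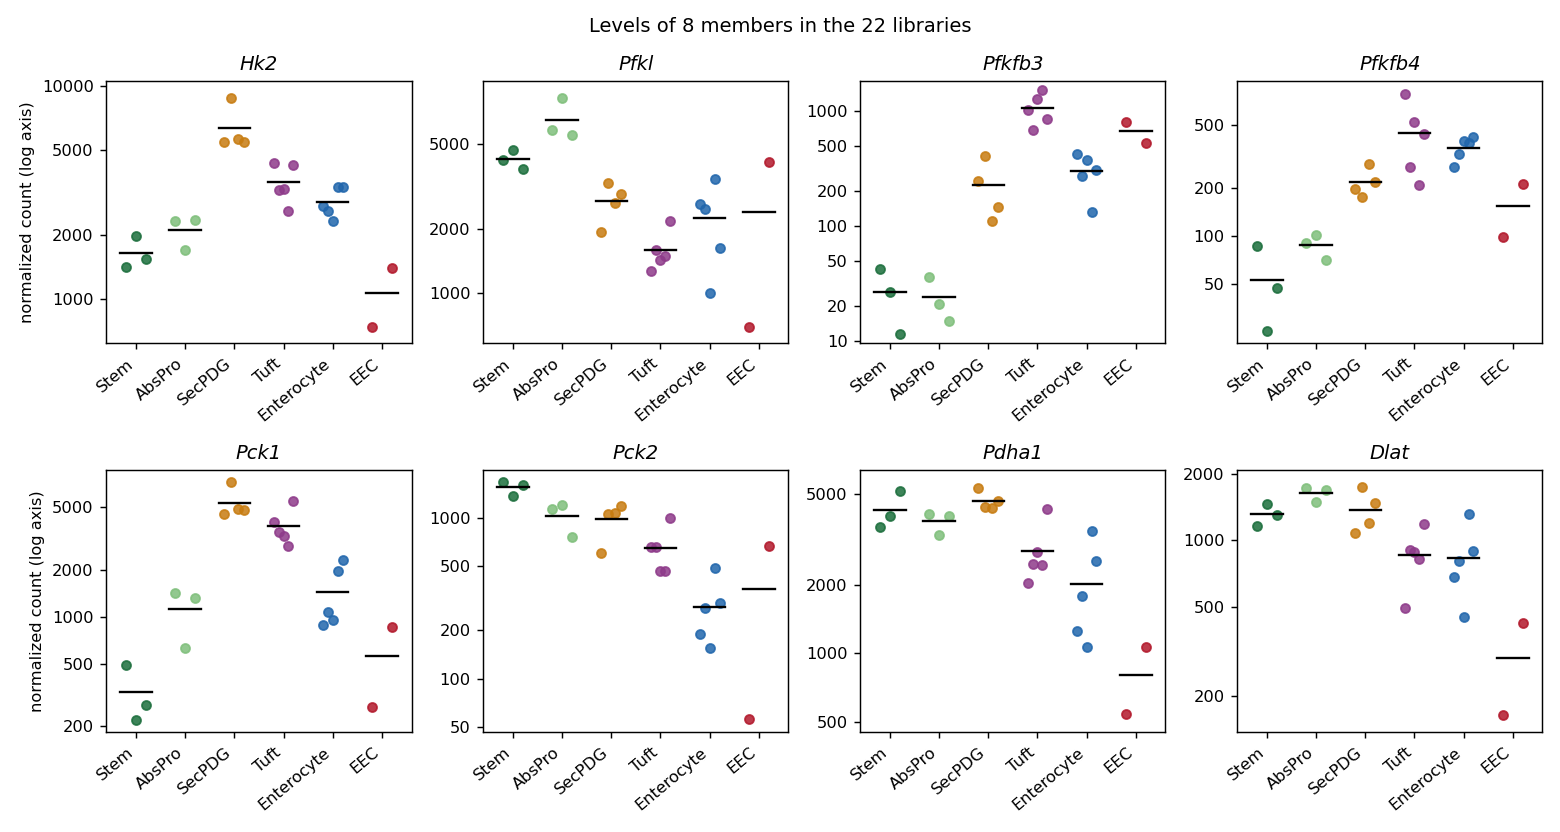
Normalized counts (log axis) of 8 genes in each of the 22 libraries, grouped by population, with the mean as a line. Pfkfb3 and Pfkfb4 are lowest in Stem and AbsPro, Hk2 and Pck1 peak in SecPDG, Pck2 is highest in Stem, and the EEC libraries lie apart for Pfkl (692 and 4118) and Pck2 (56.0 and 669).

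RefSeq holds 2 starts for Pfkfb3, shown because the gene had the largest called rise of the 35. Both stretches are the 250 bases before the start on the minus strand, at chr2:11502091-11502340 and chr2:11553930-11554179 (GRCm38.p6). Capitals mark the same core as above, which in the inner start is a complete CACGTG.
Pfkfb3 inner start: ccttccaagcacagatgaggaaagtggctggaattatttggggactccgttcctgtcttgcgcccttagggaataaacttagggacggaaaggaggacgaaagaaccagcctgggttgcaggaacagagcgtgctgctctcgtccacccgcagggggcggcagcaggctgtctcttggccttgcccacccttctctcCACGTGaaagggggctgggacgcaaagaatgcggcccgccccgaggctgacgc
Pfkfb3 outer start: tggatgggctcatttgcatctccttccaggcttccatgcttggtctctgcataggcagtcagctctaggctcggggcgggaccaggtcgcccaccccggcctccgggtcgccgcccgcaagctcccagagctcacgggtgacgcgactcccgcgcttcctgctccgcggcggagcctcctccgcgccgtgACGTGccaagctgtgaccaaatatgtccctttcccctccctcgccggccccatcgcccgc
The windows of Pfkfb4 and Pck1 did not hold these letters. Whether the letters bear on the level of any of these genes was not tested. The counts do not separate the starts of Pfkfb3.

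Gpi1, Aldoa and Tpi1, enzymes of the main chain before the energy-yielding steps, were not called against Stem in any population. Aldoa, the ubiquitous aldolase, was the most abundant of the 35 genes per kb, with means of 1755 in Tuft to 3972 normalized counts per kb in AbsPro, and libraries ranged from 2175 to 14395 normalized counts. Gpi1, glucose 6-phosphate isomerase, had means of 3029 in Enterocyte to 6401 normalized counts in AbsPro, and Tpi1, triose phosphate isomerase, of 1371 in EEC to 3942 in AbsPro. Tpi1 was lower in all 5 Tuft libraries (958 to 2356) than in the Stem libraries (2988 to 3359), a difference that did not pass (adjusted p = 0.0249). Aldoc, the brain-type aldolase, had 107, 59.5 and 96.3 normalized counts in Stem and means of 154 to 184 in AbsPro, SecPDG, Tuft and Enterocyte. EEC libraries had 280.2 and 477, above every Stem library, and the log2 rise was 2.11 ± 0.57 (adjusted p = 0.0054). The call was lost without any of the Stem libraries or without EEC replicate 2 (log2 difference down to 1.67, adjusted p 0.0114 to 0.0343). Aldoc made up at most 10.3% of the 2 aldolases per kb in any library, and its share differed between Tuft and Enterocyte by 0.869 percentage points (exact permutation test, p = 0.0556, adjusted 0.222).

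Lower glycolysis could be read only in part, because several of its genes have near-identical copies and a read that fits several places was not counted. Gapdh, one of the most highly expressed genes of most cells, had means of 43.8 to 117 normalized counts here, and 78.0% of the stretches of 100 bases of its longest coding transcript occur exactly in transcripts of other genes, 86 of them in all. The share was 67.0% for Pgk1, 59.0% for Eno1 and 39.7% for Pgam1. Eno1 was at 0 in 10 of the 15 libraries of Stem, AbsPro, SecPDG and Tuft and reached at most 1.96 normalized counts there. It had 2.28 to 11.1 in Enterocyte, and 110.3 and 0 in the EEC libraries, so that its large fold change in EEC comes from EEC replicate 1 alone (log2 difference 7.31, adjusted p = 0.013). Its copy Eno1b had 94.0 to 788.9 in all libraries. Levels of these 4 genes are therefore uncertain, and differences between populations may include reads of the copies or miss those of the gene.

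**Figure D4:**
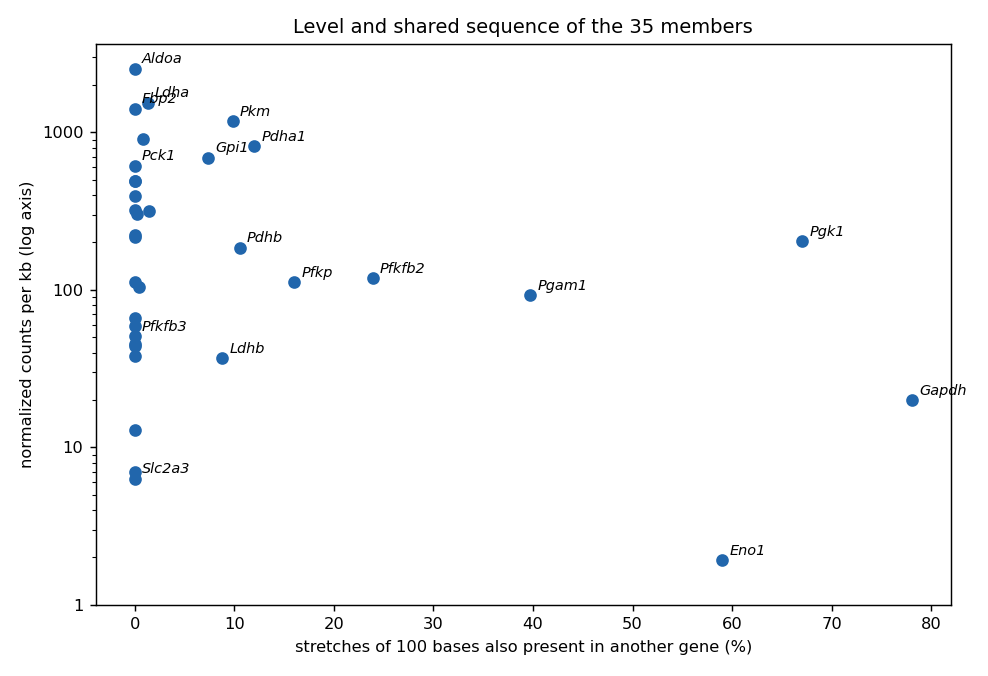
Each point is 1 of the 35 genes, with the share (%) of its stretches of 100 bases that occur exactly in another gene's transcript on the horizontal axis and the mean over the 6 populations of its normalized counts per kb (log axis) on the vertical axis. Gapdh, Pgk1, Eno1 and Pgam1 lie to the right, Eno1 is the lowest of all, and most of the other genes lie near 0%.

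With that limit, Pgam1, phosphoglycerate mutase, was the 1 gene of lower glycolysis with a call. It had 495, 284 and 341 normalized counts in Stem, means of 144 to 228 in AbsPro, SecPDG, Tuft and Enterocyte, and 5.42 and 49.8 in the EEC libraries. EEC libraries lay below all others and the log2 difference from Stem was -3.72 ± 0.75 (adjusted p = 0.00047), or -6.07 without EEC replicate 2 and -3.07 without EEC replicate 1. The background level would make up 41.6% of the EEC count. Pgk1, phosphoglycerate kinase, had means of 261 in EEC to 765 in AbsPro with no call. Eno2, the neuronal enolase, had 0 to 18.4 normalized counts in Stem, AbsPro and SecPDG, 11.7 to 102 in Tuft, 36.5 to 169 in Enterocyte, and 201 and 193 in EEC, without a call (adjusted p = 0.0340 in EEC). With Eno1 at no more than 11.1 in all libraries but EEC replicate 1, the Eno2 share of the enolases has little meaning, and its test between Tuft and Enterocyte (5.00 percentage points, exact permutation p = 0.0159, adjusted 0.127) shows the counts only.

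Pkm, the last enzyme of the chain, was not called, with means of 5315 in Stem, 7795 in AbsPro, 4249 in SecPDG, 3446 in Tuft, 5983 in Enterocyte and 8435 normalized counts in EEC. The gene makes 2 well-known forms by using either of a pair of adjacent exons. The first belongs to the constitutively active PKM1 of muscle and brain, and the second to the regulated PKM2 of proliferating cells. The skipped exon tables held this pair for Stem and AbsPro only. Both exons have 167 bases, on the plus strand at chr9:59675029-59675195 and chr9:59675568-59675734 (GRCm38), and they are shown because the balance between them defines the form. Capitals mark the 64 positions at which they differ (61.7% identity).
PKM1 exon: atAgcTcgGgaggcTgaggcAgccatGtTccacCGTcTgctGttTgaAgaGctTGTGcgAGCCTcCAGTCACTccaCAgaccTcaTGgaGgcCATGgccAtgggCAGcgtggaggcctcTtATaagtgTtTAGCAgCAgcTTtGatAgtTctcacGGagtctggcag
PKM2 exon: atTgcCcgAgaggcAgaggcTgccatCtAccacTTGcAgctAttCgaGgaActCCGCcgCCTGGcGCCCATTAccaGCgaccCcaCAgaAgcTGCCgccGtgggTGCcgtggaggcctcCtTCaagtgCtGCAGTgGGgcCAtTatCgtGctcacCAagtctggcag
In the 3 Stem libraries, 5, 30 and 53 reads included the first exon and 592, 413 and 396 the second. The first exon thus took 0.838% (95% exact binomial interval 0.273% to 1.94%), 6.77% (4.62% to 9.53%) and 11.8% (8.97% to 15.2%). In AbsPro the counts were 13, 31 and 51 against 541, 708 and 414, or 2.35% (1.26% to 3.98%), 4.20% (2.87% to 5.90%) and 11.0% (8.28% to 14.2%). The second exon took most of these reads in each library, and the ranges of both populations overlapped. The intervals cover counting error only, and the libraries of a population differed by more than these intervals.

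Lactate dehydrogenase was dominated by Ldha, the subunit that favours lactate formation. Ldha had means of 5459 ± 841 normalized counts in Stem, 7858 in AbsPro, 4805 in SecPDG, 3794 in Tuft, 5334 in Enterocyte, and 886 and 6104 in the EEC libraries. Ldhb, the heart-type subunit, stayed between 3.78 and 193 normalized counts in every library and made up at most 8.2% of both per kb. Neither was called, and the share of Ldhb differed between Tuft and Enterocyte by 0.763 percentage points (exact permutation p = 0.444, adjusted 0.593), that of Slc2a3 among the 2 glucose transporters by -1.44 (p = 0.302, adjusted 0.483).

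Of the 3 pyruvate dehydrogenase subunits, 2 were called lower in EEC, beside 12.9% of all genes. Pdha1, the catalytic subunit that the kinases phosphorylate, had 3587, 4013 and 5162 normalized counts in Stem, means of 3785 in AbsPro, 4669 in SecPDG, 2799.5 in Tuft and 2016 in Enterocyte, and 542 and 1062 in the EEC libraries. It fell by 2.41 ± 0.48 on the log2 scale in EEC (adjusted p = 0.00038). Dlat, the acetyltransferase core, had 1165, 1463 and 1302 in Stem, means of 832 to 1637 in AbsPro, SecPDG, Tuft and Enterocyte, and 164 and 426 in EEC. It fell by 2.14 ± 0.45 (adjusted p = 0.00064). Both EEC libraries lay below every Stem library for these genes. Both calls held under every alternative setting that could lose a call and without any 1 Stem library. The change of Dlat ranged from -1.79 without EEC replicate 1 to -3.00 without EEC replicate 2. Pdhb, the partner of Pdha1, had 90.4 and 502 in EEC against 530.1 to 1066 in Stem, a log2 difference of -1.57 without a call (adjusted p = 0.0129). Some sequence is shared with other genes, 12% of the stretches for Pdha1 and 10.5% for Pdhb.

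Of the pyruvate dehydrogenase kinases, Pdk1 alone was called, in EEC. Its normalized counts were 950.1, 1137 and 1237 in Stem, 416 and 485 in EEC, and 954 to 1148 in the means of AbsPro, SecPDG and Tuft. The log2 difference of -1.30 ± 0.38 (adjusted p = 0.0088) shrank to as little as -0.53 under other scalings. It was no call under DESeq2 size factors, library totals or the DESeq2 test (adjusted p 0.0242 to 0.0984), nor without Stem replicate 1 or either EEC library (0.012 to 0.0136). Pdk2 had means of 666 in Enterocyte to 1482 in SecPDG, Pdk3 of 607 in Enterocyte to 1253 in EEC, and Pdk4, the kinase induced by fasting, of 109.5 in Tuft to 235 in Enterocyte. None of these 3 was called.

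Gluconeogenesis genes gave the widest contrast between isozymes. Pck1, the cytosolic phosphoenolpyruvate carboxykinase and rate-limiting enzyme of gluconeogenesis in liver, had 494, 219.6 and 272 normalized counts in Stem, 1406, 635 and 1308 in AbsPro, 4504, 7235, 4843 and 4810.4 in SecPDG, 4017, 3465, 3292, 2812 and 5514 in Tuft, 888, 1067, 955, 1961 and 2312 in Enterocyte, and 264 and 857 in EEC. Only the EEC libraries overlapped Stem, and SecPDG and Tuft lay above all others. On the log2 scale the rise over Stem was 4.03 ± 0.47 in SecPDG (adjusted p = 2.8e-07), 3.54 ± 0.46 in Tuft (9.3e-07) and 2.13 ± 0.42 in Enterocyte (0.00038). These 3 calls held under every alternative setting that could lose a call and without any 1 library. AbsPro differed by 1.77 without a call (adjusted p = 0.046) and EEC by 0.77 (adjusted p = 0.185). Between AbsPro and SecPDG the rise was 2.26 ± 0.43 (adjusted p = 0.0009), which was lost without AbsPro replicate 2 (adjusted p = 0.0205).

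Pck2, the mitochondrial form, was called in the opposite direction. It had 1657, 1372 and 1604 normalized counts in Stem, means of 1032 in AbsPro, 979 in SecPDG and 651 in Tuft, then 189, 276, 156, 485 and 296 in Enterocyte, and 56.0 and 669 in EEC. Enterocyte and EEC libraries all lay below Stem, with log2 differences of -2.46 ± 0.42 (adjusted p = 7e-05) and -2.08 ± 0.58 (adjusted p = 0.0065). The Enterocyte difference held under every alternative that could lose a call. That in EEC was lost with the background taken off (adjusted p = 0.0231), without Stem replicate 1 or without EEC replicate 1 (0.0162 and 0.0285), and ranged from -1.37 without EEC replicate 1 to -4.78 without EEC replicate 2. Enterocyte also lay below AbsPro by -1.88 ± 0.42 (adjusted p = 0.0034), lost without AbsPro replicate 2 or Enterocyte replicate 3 (0.0134 and 0.0253) and with the background taken off (0.0106). Per kb, Pck1 made up, of both genes, 31.7% ± 7.63 in Stem, 69.4% ± 13.02 in AbsPro, 92.5% ± 2.06 in SecPDG, 93.1% ± 0.708 in Tuft, 91.9% ± 2.08 in Enterocyte and 83.0% ± 12.02 in EEC (SD over libraries). The highest Stem share, 40.4%, was below the lowest share of any other population, 54.7% in AbsPro. This share does not depend on the scaling of a library, but its size depends on the merged exon lengths.

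The Pck1 promoter is shown because this gene had the largest rise in SecPDG. The stretch covers the 250 bases before the RefSeq start at chr2:173152823-173153072 (GRCm38.p6, plus strand). Capitals mark TTACGTCA, the cAMP response element known from liver, searched on both strands (the other strand reads TGACGTAA, and neither overlaps the core above).
Pck1: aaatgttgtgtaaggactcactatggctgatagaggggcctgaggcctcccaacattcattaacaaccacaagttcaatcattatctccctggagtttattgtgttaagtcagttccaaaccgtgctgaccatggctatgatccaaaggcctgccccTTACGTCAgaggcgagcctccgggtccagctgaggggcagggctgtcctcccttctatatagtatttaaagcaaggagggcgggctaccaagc
Of all 32851 promoters, 164 held it (0.499%), and Pck1 was the 1 gene of the 35 that did.

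Fructose bisphosphatases and glucose 6-phosphatase completed the list. Fbp2, the muscle-type fructose bisphosphatase, had means of 992 to 1959 normalized counts per kb and exceeded Fbp1, the liver-type one, at 17.4 to 77.3 per kb, in every population. Neither was called. G6pc3, the ubiquitous glucose 6-phosphatase, had 662, 632 and 722 normalized counts in Stem, means of 531 to 646 in AbsPro, SecPDG and Tuft, and 277, 241, 221, 378 and 332 in Enterocyte. Enterocyte libraries were all below Stem, a fall of 1.21 ± 0.36 on the log2 scale (adjusted p = 0.0097). Of the 8 alternative settings, no minimum mean and an adjusted p below 0.05 could not lose this call, and 5 of the others lost it. Among these were both other scalings (log2 difference as small as -0.67, adjusted p 0.0138 to 0.0619). The call was also lost without Stem replicate 1 or Enterocyte replicates 2, 3 or 5 (0.0126 to 0.0271).

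Neighbouring pathways were read from lists of their genes. In EEC, 0 of 16 citric acid cycle genes were called higher and 8 lower (Cs, Fh1, Idh3a, Idh3b, Idh3g, Mdh2, Suclg1 and Suclg2), beside 11.4% and 12.9% of all genes, with a median log2 difference of -1.67 beside -0.33 for all genes. The lower calls numbered 10 to 14 over the other scalings, DESeq2 and the background taken off. Idh3g, a regulatory subunit of isocitrate dehydrogenase, had the largest fall without overlap, from 2374 ± 175 to 430.1 ± 71.3 normalized counts (log2 difference -2.46 ± 0.46, adjusted p = 0.00018). Tuft and Enterocyte each had 1 of the 16 called lower (Idh3g), beside 3.5% and 13.7% of all genes, and in Tuft this became 1 to 3 over the same alternatives. AbsPro and SecPDG had 0 called by edgeR, by DESeq2 and at an unadjusted p below 0.05. Among 8 pentose phosphate genes, 0 were called higher in any population (also 0 by DESeq2 and at an unadjusted p below 0.05), and 5 were called lower in EEC, 4 in Enterocyte (G6pdx, Pgls, Taldo1 and Tkt) and 1 in Tuft (G6pdx), beside 12.9%, 13.7% and 3.5% of all genes. Over the alternatives just named, the lower calls numbered 4 to 6 in EEC, 4 in Enterocyte and 2 to 3 in Tuft. Tkt, transketolase, had 10209 ± 841 normalized counts in Stem and 1684 ± 1676 in EEC (log2 difference -2.60 ± 0.57, adjusted p = 0.001). In bulk libraries, a smaller share of cells that express a gene and less RNA of it per cell cannot be told apart.

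Among 12 genes that work with pyruvate dehydrogenase or carry pyruvate and lactate, EEC had 1 called higher and 4 lower (beside 11.4% and 12.9% of all genes), Enterocyte 1 and 1 (9.68% and 13.7%), Tuft 0 and 1 (7.63% and 3.5%), and AbsPro and SecPDG 0. At an unadjusted p below 0.05 edgeR had 1 higher in AbsPro, 1 higher and 1 lower in SecPDG, and 1 higher in Tuft. The splits moved with the method. DESeq2 gave 3 and 4 in EEC, 4 and 1 in Enterocyte, 1 and 1 in Tuft, 1 and 0 in AbsPro (Pcx, pyruvate carboxylase) and 0 in SecPDG, and its size factors in edgeR gave 3 and 3 in EEC, 2 and 0 in Enterocyte and 1 and 1 in Tuft. Slc16a3 (MCT4, the lactate exporter of glycolytic cells) rose in EEC from 16.1 ± 22.8 to 705 ± 76.2 normalized counts (log2 difference 5.43 ± 1.25, adjusted p = 0.0016), whereas Slc16a7 (MCT2) fell from 85.7 ± 23.5 to 5.42 ± 7.67 (-4.05 ± 1.13, adjusted p = 0.0063). Of 12 hypoxia and glycolysis regulators, the calls higher and lower were 0 and 1 in SecPDG (beside 4.17% and 1.19% of all genes), 0 and 3 in Tuft (7.63% and 3.5%), 2 and 2 in Enterocyte (9.68% and 13.7%) and 2 and 2 in EEC (11.4% and 12.9%). With DESeq2 they were 2 and 1, 4 and 3, 4 and 2, and 4 and 2 in the same order. Hif1a, the oxygen-regulated subunit of the hypoxia factor, was then higher in all 4. The main edgeR fit called Hif1a in Enterocyte alone, but edgeR called it in all 4 with DESeq2 size factors or library totals. With the background taken off, edgeR called it in SecPDG, Tuft and Enterocyte. At an unadjusted p below 0.05 edgeR had 4 higher in SecPDG and 2 in Tuft. Myc, a driver of glycolysis in dividing cells, had 2927 ± 426 normalized counts in Stem and 215 ± 212 in EEC (-3.78 ± 0.63, adjusted p = 4e-05) and was also called lower in Tuft and Enterocyte. Bnip3, a mitochondrial target of hypoxia signalling, went from 9.41 ± 8.15 to 310.5 ± 17.3 in EEC (5.02 ± 1.27, adjusted p = 0.0034).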

How the data were processed

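RNA of 22 libraries of sorted colon crypt cells, made with a low-input kit and read as paired ends, was examined. The deposited values are raw counts per gene, which the authors made with STAR (version 2.5.2a) on mm10 and HTSeq (version 0.6.1p1) without strand, so reads that fit several places were not counted. The deposited skipped exon tables gave the read counts of the Pkm exons; their columns name a population but not the library, and their p-values and differences, like the local splicing and polyadenylation tables, were not used. Entries that name no gene were left out.

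Counts were fitted once for all 22 libraries with edgeR 4.0.16 in R 4.3.3 (filterByExpr, TMM, quasi-likelihood test, Benjamini-Hochberg adjustment over all genes tested). A call needs an adjusted p below 0.01 and 50 normalized counts as the mean of all libraries. Alternatives were DESeq2 1.42.0, its size factors, library totals, no filter, no minimum mean, an adjusted p below 0.05, a replicate block, subtraction of a background level per kb taken from 1509 genes silent in gut, and leaving out each library. The test was checked on simulated data. Isozyme shares of counts per kb (merged exons, GENCODE M21) were compared by exact permutation tests over 8 shares. Promoters are those of RefSeq. All 35 genes were named; genes called against Stem have values for libraries, and of each neighbouring list the largest rise and fall without overlap was named. A further list of isozymes is not reported here. The genes, lists and rules were chosen with earlier results of these data known. Total counts and their limits stand with the report. The edgeR p-values set a difference between populations against the variation between libraries, which was estimated from all 22 libraries together.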

Additional observations from a re-analysis of the deposited data

Results flagged for a closer look

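In groups of 4 and 5 libraries, 9 of 96 sets of values held a library far from the others (9.4%; chance gives about 1 in 20). In SecPDG, replicate 2 had 8777 normalized counts of Hk2 where the others had 5440 to 5640, and 7235 of Pck1 where the others had 4504 to 4843, and both stayed called without it. SecPDG replicate 3 had 678 of Pdk1 (others 1053 to 1076), and SecPDG replicate 1 had 919.9 of Pdk3 (others 1157 to 1181). Tuft replicate 1 had 1936 of Pdk2 (others 854 to 984), and Tuft replicate 5, the deepest Tuft library, had 1104 of Pdk3 (others 618 to 712) and 983 of Pdhb (others 541 to 662). Enterocyte replicate 4, the deepest Enterocyte library, had 1878.5 of Slc2a1 (others 1207 to 1386) and 283 of Aldoc (others 132 to 169). What sets these libraries apart was not tested.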

How the results depend on the processing

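Of 4260 single-gene comparisons under alternatives, 4012 stayed on their side of the threshold, 58 lost a call and 190 gained one. Where a gene was called in either fit, 0 turned in direction. The direction of genes called in neither fit was not compared. Of 29 calls, 16 were kept under every alternative, although no minimum mean and an adjusted p below 0.05 could not lose a call. Counts of genes called changed by over 1.5 times as follows. An adjusted p below 0.05 gave 1 (AbsPro), 9 (Tuft), 14 (Enterocyte) and 14 (EEC) against Stem and 15 for Enterocyte against AbsPro. DESeq2 size factors gave 2, 8, 10 and 12 against Stem in the same order. Library totals gave 2 (AbsPro), 10 (Tuft) and 13 (EEC) against Stem and 5 for SecPDG against AbsPro. DESeq2 gave 3, 14, 15 and 15 against Stem, 5 for SecPDG against AbsPro, 12 for Enterocyte against AbsPro and 5 for Tuft against SecPDG. The cause was not tested.

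Neither the labels nor the study says whether same-numbered libraries of different populations share animals. Deviations of same-numbered libraries from their population means had correlations of -0.213 to 0.309, over 0.1 in 2 pairs. With the replicate number as a block, Enterocyte against AbsPro had 12 calls in place of 4, the calls of Pfkp and G6pc3 in Enterocyte (adjusted p 0.0116 and 0.0164) and of Aldoc in EEC (0.0137) against Stem were lost, and the other counts stayed within 1.5 times (0, 4, 5, 7 and 7 against Stem, 3 and 1 otherwise). Leaving out 1 library gave 0 calls for AbsPro, 3 to 4 for SecPDG, 3 to 4 for Tuft, 4 to 7 for Enterocyte (7 without Enterocyte replicate 1) and 5 to 12 for EEC (12 without EEC replicate 2) against Stem, 1 to 3 for SecPDG against AbsPro (1 without AbsPro replicate 2), 1 to 11 for Enterocyte against AbsPro (1 without AbsPro replicate 2, 11 without Enterocyte replicate 1) and 0 to 1 for Tuft against SecPDG. Without 1 EEC library the other is assumed to vary like the rest. Slc2a3, Eno1 and Pfkfb1 stayed under the minimum mean and could not be called in the main fit. The part of depth in their low counts was not tested.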
